A study of Mus musculus with 4 samples.

Results

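The sites described here are CTCF binding sites of mouse liver that lie between genes but close to them. A site was taken when its midpoint lay in no annotated gene body and over 1 kb, but no more than 50 kb, from the nearest annotated transcript start, on the 19 autosomes of the mm9 genome. Of the 10038 autosomal sites listed at ZT0, 3669 met this rule (36.6%, 95% Wilson interval 35.6 to 37.5%), and of the 6756 listed at ZT12, 2575 did (38.1%, 37.0 to 39.3%). These are called intergenic sites near genes below, and the bases of the autosomes that meet the same rule are called their territory. Wilson intervals are given throughout at the 95% level and cover counting error only, since neither replicates nor read depth stand behind a listed site.

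The sites come from ChIP-seq against CTCF on whole liver of male C57BL/6 wild type mice, 8 weeks old, kept on 12 h light and 12 h dark and fed ad libitum. Livers were taken at ZT0, when the lights went on, and at ZT12, when they went off, with 2 biological replicates at each time. Each time point has a single list of peak positions for both replicates, labelled as peaks after a motif search with FIMO, without a score, strand or replicate. Whole liver holds several cell types besides hepatocytes, and a listed site does not say in which of them CTCF was bound.

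CTCF is a zinc finger protein that binds a long, GC-rich sequence and stops the extrusion of chromatin loops by cohesin, preferentially when its motif points into the loop. Some sites between genes act as insulators, which can keep an enhancer from acting on a promoter beyond them, as at the imprinted Igf2 and H19 genes. Methylation of a CpG within the recognition sequence can prevent binding.

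The territory made up 679.6 Mb, or 28.4% of the sequenced autosomal bases, so that the 36.6% of ZT0 sites found there were more than its share of the genome. The density was 5.40 ZT0 sites and 3.79 ZT12 sites per Mb. Introns, with 36.3% of the bases, held 3.57 ZT0 and 2.36 ZT12 sites per Mb, and intergenic sequence further than 50 kb from any start held 0.981 and 0.602 per Mb. Sequence within 1 kb of a start was the densest, at 20.4 and 13.8 sites per Mb, and exons followed with 9.36 and 5.76. In both lists the density of intergenic sites near genes thus lay below that at starts and in exons and above that in introns and far from genes.

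Within the territory the density fell with the distance from the start. Between 1 and 2 kb there were 249 ZT0 sites, or 8.55 per Mb, and between 20 and 50 kb 1004 sites, or 3.58 per Mb. At ZT12 the density went from 6.66 to 2.38 per Mb over the same range. The median distance to the nearest start was 11.4 kb at ZT0 (25% and 75% of the sites within 5.19 and 21.5 kb) and 11.1 kb at ZT12. The stretch from 20 to 50 kb made up 41.3% of the territory but held 27.4% of the ZT0 sites and 26.0% of those at ZT12.

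Short gaps between genes were the most densely occupied. Gaps under 10 kb made up 4.46% of the territory and held 11.7% of the ZT0 sites (10.7 to 12.8%), which came to 14.2 per Mb. In gaps of 10 to 50 kb there were 8.16 ZT0 sites per Mb, in gaps of 50 to 200 kb 4.13, and in gaps over 200 kb 1.73. The ZT12 densities in the same order were 10.6, 5.84, 2.77 and 1.18 per Mb. The nearest start belonged to a protein-coding gene for 73.2% of the ZT0 sites (71.8 to 74.6%) and 74.3% of the ZT12 sites (72.6 to 76.0%), while such genes were nearest for 58.2% of the territory. Pseudogenes were nearest for 13.6% of the territory and for 7.03% of the ZT0 sites, and small nucleolar RNA genes for 6.10% and 2.43%.

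Seen from the nearest start, 59.8% of the ZT0 sites (58.2 to 61.3%) and 59.8% of the ZT12 sites (57.9 to 61.7%) lay upstream, and 61.3% of the territory does too. This even picture was made of opposite ones from 1 to 2 kb and beyond 5 kb. From 1 to 2 kb the ZT0 density was 9.34 per Mb upstream against 6.22 downstream. From 2 to 5 kb the sides were close, with 7.68 against 7.39. Of the ZT0 sites in that range 70.0% lay upstream (66.3 to 73.4%), next to 69.2% of the territory in it. Further away the downstream side was the denser, with 7.36 against 6.08 per Mb from 5 to 10 kb, 6.93 against 5.41 from 10 to 20 kb, and 3.87 against 3.35 from 20 to 50 kb. The ZT12 list showed the same order in all 5 ranges, from 7.41 per Mb upstream against 4.46 downstream at 1 to 2 kb to 2.20 against 2.63 at 20 to 50 kb.

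The end of a gene was the nearer neighbour more often than its beginning. Taking the edge of the flanking gene bodies closest to each site, that edge was a 3′ end for 53.2% of the ZT0 sites (51.6 to 54.8%) and 53.4% of the ZT12 sites (51.5 to 55.3%), compared with 46.6% of the territory. The density was 6.17 ZT0 sites per Mb where a 3′ end was nearer and 4.74 where a 5′ end was. At ZT12 these densities were 4.34 and 3.31 per Mb. Between genes that point at each other, 22.7% of the ZT0 sites were found (21.4 to 24.1%) in 20.9% of the territory. Divergent neighbours flanked 23.9% (22.6 to 25.3%) in 24.9%, and neighbours on the same strand 53.3% (51.7 to 54.9%) in 54.1%.

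Per chromosome, the number of ZT0 sites per Mb of territory ranged from 4.01 on chromosome 13 and 4.08 on chromosome 3 to 7.71 on chromosome 15 and 8.51 on chromosome 11. The ZT12 list was lowest on chromosome 16, at 2.65 per Mb, and highest on chromosome 11 too, at 6.05.

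At ZT0, 1519 of the 3669 intergenic sites near genes overlapped no ZT12 site (41.4%, 39.8 to 43.0%), against 43.6% of all autosomal ZT0 sites. At ZT12, 422 of 2575 overlapped no ZT0 site (16.4%), against 16.1% of all autosomal ZT12 sites. Overlap here means at least 1 bp. The sites near genes were therefore close to the background of their own list. The ZT0 list is the longer one, and the depth of either library is unknown, so that a site missing from the ZT12 list may be unbound, below the calling threshold or dropped when the replicates were combined or the motif search was made. These cannot be told apart here. The lists are also shorter than the set of CTCF sites that the study itself worked with. The overlap given here is that of the deposited lists alone, and a site found in a single list may be shared in the larger set.

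Counted the other way, 58.6% of the ZT0 sites near genes were shared with ZT12 (57.0 to 60.2%). Sites at starts were shared in 62.4% of cases (60.3 to 64.5%), exonic sites in 54.5% (50.3 to 58.6%), intronic sites in 52.2% (50.5 to 54.0%) and intergenic sites far from genes in 47.0% (43.2 to 50.7%). Of the ZT12 sites near genes, 83.6% were shared with ZT0 (82.1 to 85.0%), compared with 92.6% at starts (91.1 to 93.9%), 88.3% in exons (84.4 to 91.3%), 79.1% in introns (77.3 to 80.8%) and 76.5% far from genes (72.2 to 80.3%). In both lists the intervals of the sites near genes lay below those at starts and above those in introns and far from genes. The partner of a shared ZT0 site was itself an intergenic site near a gene in 2147 of 2150 cases, and the other 3 had a partner within 1 kb of a start.

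The shared fraction was highest nearest to the start and lowest furthest from it. It was 66.7% of the ZT0 sites from 1 to 2 kb (60.6 to 72.2%), between 58.5 and 61.1% from 2 to 20 kb, and 54.6% from 20 to 50 kb (51.5 to 57.6%). For ZT12 sites it went from 87.1% (81.7 to 91.1%) to 82.2% (79.1 to 84.9%), with overlapping intervals. Upstream and downstream sites, with 57.9% (55.8 to 59.9%) and 59.7% (57.2 to 62.2%) of ZT0 sites shared, had overlapping intervals. So had sites between convergent (60.3%, 56.9 to 63.5%), divergent (56.5%, 53.2 to 59.7%) and same-strand genes (58.8%, 56.6 to 61.0%).

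Width separated the shared from the other sites far more than position did. The shared ZT0 sites near genes had a median width of 342 bp and the ZT0-only sites 277 bp. The narrowest 25% of the ZT0 sites, with a median of 236 bp, were shared in 35.4% of cases (32.4 to 38.6%), and the widest 25%, with a median of 430 bp, in 82.6% (80.0 to 84.9%). In the ZT12 list the same classes were shared in 72.8% (69.3 to 76.1%) and 94.3% (92.2 to 95.8%) of cases. Where a ZT0 and a ZT12 site paired only with each other, in 2142 cases, the site was narrower at ZT12 in 1499 (70.0%, 68.0 to 71.9%) and equally wide in 8. Their median width went from 342 bp in the ZT0 list to 293 bp in the ZT12 list.

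Base composition moved with sharing as well. In 200 bp around the midpoint the median GC content was 53.0% for shared ZT0 sites, 50.5% for ZT0-only and 48.5% for ZT12-only sites, against 47.0% in windows 5 kb away. From the lowest to the highest 25% by GC content, the shared fraction of ZT0 sites went from 42.9% (39.8 to 46.1%) to 73.0% (70.0 to 75.7%), and that of ZT12 sites from 67.5% (63.8 to 71.0%) to 95.3% (93.4 to 96.7%). By distance, the median GC content of the ZT0 sites was 53.5% from 1 to 2 kb and 51.5% from 20 to 50 kb. Width, GC content and sharing come from the same libraries, and their part in the difference between the time points was not tested.

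Sequence made of words with many copies in the genome was nearly absent from the sites. Windows of 200 bp in which at least 50% of the 16-base words occur 100 or more times in the genome made up 4 of the 3669 ZT0 sites (0.109%, 0.0424 to 0.280%) and 4 of the 2575 ZT12 sites, but 9.10% of the windows 5 kb from the ZT0 sites (8.21 to 10.1%). The reads had been filtered by mapping quality, which acts on such sequence, and the part of this filter was not tested. The other classes of ZT0 sites had low values too, with 0.147% at starts, 0% in exons, 0.0966% in introns and 0.149% far from genes. Repeats of fewer copies are not registered by this measure. In the row of copies on chromosome 6 described below, such words made up at most 9.73% of a window.

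The CTCF motif was learned from the listed sites as a 19 bp weight matrix, whose most frequent bases read TGGCCACCAGGGGGCGCTA whether it was learned on odd-numbered or even-numbered chromosomes. A match was counted at the score that 5% of equally long windows 5 kb away reached. By this measure 92.7% of the ZT0 sites near genes (91.8 to 93.5%) and 93.0% of the ZT12 sites (91.9 to 93.9%) held a match, compared with 4.82 and 4.93% of the windows 5 kb away. Since the lists are labelled as the result of a motif search, a high share may partly be a property of how they were made, which was not tested. Intronic and far intergenic ZT0 sites held a match about as often, in 92.9 and 93.2% of cases, and sites at starts less often, in 81.2% (79.4 to 82.8%). From 1 to 2 kb the share was 89.2% (84.7 to 92.4%) and from 10 to 20 kb 94.8% (93.2 to 96.0%).

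The best match lay a median of 25 bp from the midpoint of ZT0 sites and 31 bp from that of ZT12 sites. In 78.1% of the ZT0 sites with a match it was within 50 bp of the midpoint (76.6 to 79.4%). Where paired ZT0 and ZT12 sites both held a match, it was the same stretch of DNA in 1990 of 1997 pairs. Within the matches the bases at some positions hardly varied. Counted from the first base of the matrix, C stood at position 5 in 99.8%, G at position 10 in 99.8% and G at position 13 in 99.5% of the 3401 ZT0 matches. Other positions took either of 2 bases, such as position 7 with C in 62.5% and G in 35.0%, position 11 with G in 61.3% and A in 38.5%, and position 12 with G in 59.9% and T in 36.9%.

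Position 16 is of interest because a G there follows the C at position 15 and forms a CpG that can be methylated. It was G in 55.5% and A in 42.1% of the ZT0 matches. Both bases of the CpG were present in 45.9% of the matches of shared ZT0 sites (43.8 to 48.1%), in 39.6% of those of ZT0-only sites (37.1 to 42.2%) and in 34.7% of those of ZT12-only sites (30.1 to 39.6%). Conversely, sites with the CpG in their match were shared in 62.8% of cases at ZT0 (60.3 to 65.2%) and sites without it in 56.6% (54.4 to 58.8%). At ZT12 these fractions were 87.3% (85.2 to 89.2%) and 81.1% (78.9 to 83.1%). A G at position 6 forms another CpG with the C at position 5. It stood in 10.8% of the matches of shared ZT0 sites, 6.86% of those of ZT0-only sites and 4.66% of those of ZT12-only sites. Methylation was not measured here, and the local GC content given above moves in the same direction.

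The strength of the match went along with sharing to a smaller extent than width. The 25% of ZT0 sites with the lowest scores were shared in 53.9% of cases (50.7 to 57.1%) and the 25% with the highest in 64.0% (60.9 to 67.1%). The 268 ZT0 sites without a match were shared in 134 cases (interval 44.1 to 55.9%), and had a median GC content of 52.5%, close to the 52.0% of sites with a match.

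Bases 8 to 17 of the match, called the core here, took 489 different forms among the 3401 ZT0 matches, and the 6 most frequent are given with how often they were occupied. CAGGGGGCGC was the core of 184 ZT0 and 146 ZT12 sites near genes. It occurred 489 times in the territory on either strand, and 196 of these copies lay in a ZT0 site (40.1%, 35.8 to 44.5%) and 156 in a ZT12 site (31.9%, 27.9 to 36.2%). CAGAGGGCGC had 447 copies, 32.0% of them in a ZT0 site (27.8 to 36.5%), and CAGGTGGCGC had 402, of which 30.1% were (25.8 to 34.8%). The cores that end in CAG and lack the CpG were far more common and seldom occupied. CAGGGGGCAG had 2491 copies with 6.58% in a ZT0 site (5.68 to 7.63%), CAGGTGGCAG 4020 with 2.69% (2.23 to 3.23%) and CAGAGGGCAG 5973 with 2.13% (1.79 to 2.52%). The bases of the motif outside the core were not held constant in this comparison.

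The same core word was occupied to different degrees in other parts of the genome. The 6 words were chosen as the most frequent among ZT0 matches near genes, which can favour that class in the comparison. CAGGGGGCGC lay in a ZT0 site in 43.6% of its 461 copies within 1 kb of a start (39.1 to 48.2%), in 32.3% of 498 copies in introns (28.4 to 36.6%) and in 15.2% of 197 intergenic copies far from genes (10.9 to 20.9%). For each of the 6 words the intervals near genes and at starts overlapped. The percentage was lower near genes than at starts for 5 of them, and higher for CAGGTGGCGC, with 30.1% near genes (25.8 to 34.8%) against 22.5% at starts (17.7 to 28.2%). Of the 489 copies of CAGGGGGCGC in the territory, 140 lay in a site of both lists.

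The 6 shared sites near genes with the highest motif scores at ZT0 are shown to let the motif be read in its surroundings. Each is given with 20 bases on either side, 5′ to 3′ on the strand of the motif, named by the gene of the nearest start. Capitals mark the 19 bp match and the mm9 coordinates are those of the capitals.
Rdh8 (chr9:20635625-20635643, minus strand): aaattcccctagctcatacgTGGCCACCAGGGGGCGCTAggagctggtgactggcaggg
Hand1 (chr11:57633658-57633676, plus strand): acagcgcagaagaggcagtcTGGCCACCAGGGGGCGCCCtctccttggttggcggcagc
Insig1 (chr5:28420669-28420687, minus strand): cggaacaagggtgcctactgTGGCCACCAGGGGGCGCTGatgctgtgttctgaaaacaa
Rhbdd2 (chr5:136092112-136092130, plus strand): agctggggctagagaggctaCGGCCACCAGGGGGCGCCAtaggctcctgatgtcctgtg
Adm (chr7:117773860-117773878, minus strand): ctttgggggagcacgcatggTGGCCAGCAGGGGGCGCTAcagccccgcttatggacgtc
Nxph3 (chr11:95395254-95395272, plus strand): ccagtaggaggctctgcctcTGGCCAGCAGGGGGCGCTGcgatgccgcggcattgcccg
The scores of these sites ran from 27.2 to 27.8, where the score is a sum of log2 odds and 10.2 was enough for a match. The site of Rdh8, a retinol dehydrogenase gene, lay 12.7 kb downstream of its start and matches the most frequent bases throughout. The site at Insig1, whose protein holds back the activation of sterol regulatory element binding proteins, lay 22.7 kb downstream of the start, and that of Adm, which encodes the vasodilator adrenomedullin, 2.69 kb downstream. The sites named for Hand1, Rhbdd2 and Nxph3 lay 12.0, 16.4 and 19.4 kb from their starts.

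Sites listed at ZT0 only could hold motifs just as good. The 4 with the highest scores are set out in the same way.
Gata5 (chr2:180082010-180082028, minus strand): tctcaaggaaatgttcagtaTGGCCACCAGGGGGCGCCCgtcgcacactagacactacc
Rap1gap (chr4:137286210-137286228, plus strand): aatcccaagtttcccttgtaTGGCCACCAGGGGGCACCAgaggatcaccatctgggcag
Pla2g2e (chr4:138440398-138440416, minus strand): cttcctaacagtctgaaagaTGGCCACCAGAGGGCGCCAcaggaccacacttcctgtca
Slc35f5 (chr1:127504183-127504201, plus strand): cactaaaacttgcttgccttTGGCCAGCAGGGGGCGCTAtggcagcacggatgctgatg
Their scores were 27.3 to 27.8, and the match of the site near Gata5, 460 bp wide and 12.7 kb upstream of the start of this GATA factor gene, has the same 19 bases as that of Hand1. The scores of these matches differ because each chromosome was scored with the matrix learned on the other set, so that small differences in score do not rank the sites. The sites of Rap1gap, Pla2g2e and Slc35f5 were 336, 239 and 243 bp wide and lay 2.07, 5.09 and 46.6 kb downstream of their starts. High-scoring sites listed at ZT12 only follow, 3 in number.
9530036O11Rik (chr5:28777908-28777926, plus strand): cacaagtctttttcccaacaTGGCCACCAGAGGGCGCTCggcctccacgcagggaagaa
Hlx (chr1:186595689-186595707, minus strand): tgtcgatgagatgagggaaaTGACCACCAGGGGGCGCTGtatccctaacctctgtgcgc
Ing2 (chr8:48778666-48778684, minus strand): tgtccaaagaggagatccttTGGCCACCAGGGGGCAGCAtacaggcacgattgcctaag
They scored 26.3 to 26.8 and were between 205 and 290 bp wide. The one named for 9530036O11Rik lay between Rbm33 and Shh. Those of Hlx, a homeobox gene, and Ing2 lay 39.2 and 17.7 kb upstream.

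Because the orientation of a CTCF motif matters for loop formation, the strand of each match was compared with the strand of the nearest gene. Downstream of the nearest start, the motif lay on the strand of the gene, and so pointed away from it, in 59.1% of 1376 ZT0 matches (56.5 to 61.7%) and 58.5% of 973 ZT12 matches (55.4 to 61.5%). Upstream sites showed less of a preference, with 53.6% on the strand of the gene at ZT0 (51.4 to 55.7%) and 51.0% at ZT12 (48.4 to 53.5%). The upstream ZT12 value was made of 52.6% for shared (49.8 to 55.5%) and 42.7% for ZT12-only sites (36.6 to 49.0%). At ZT0 the upstream values were 52.4% for shared (49.5 to 55.2%) and 55.3% for ZT0-only sites (51.9 to 58.6%). The downstream preference was found for protein-coding genes (60.6%, 57.4 to 63.7%) and for shared (58.2%, 54.8 to 61.5%) as well as ZT0-only sites (60.4%, 56.3 to 64.5%).

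Counted from the nearer gene edge, 59.6% of the ZT0 matches next to a 3′ end pointed away from that gene (57.3 to 61.8%), but 48.6% of those next to a 5′ end did (46.1 to 51.1%). The ZT12 values were 59.0% (56.3 to 61.6%) and 52.2% (49.2 to 55.1%). In gaps between 2 genes on the same strand, 57.0% of the ZT0 matches lay on that strand (54.7 to 59.3%), and 55.0% of the ZT12 matches did (52.3 to 57.7%). Over all sites near genes the strands were nearly balanced, with 48.9% of the ZT0 matches on the plus strand (47.2 to 50.6%).

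The ZT0 sites near genes were spread over 3001 gaps between genes, of which 2465 held a single one, 440 held 2 and 96 held 3 or more. Another site of the same list lay within 10 kb of 1048 ZT0 sites (28.6%) and 581 ZT12 sites (22.6%). Of the 536 gaps with at least 2 ZT0 sites, 180 held only shared sites, 68 only ZT0-only sites and 288 both kinds. In 308 such gaps at ZT12, the numbers were 223, 9 and 76. The nearest starts belonged to 3090 genes at ZT0 and 2267 at ZT12, with 1956 genes in common, which is 63.3% of the ZT0 and 86.3% of the ZT12 genes.

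Neighbouring matches within the same gap rarely faced each other. Leaving out the gap with the most sites, on chromosome 6, 12.5% of 574 neighbouring pairs at ZT0 were convergent (10.1 to 15.5%), 31.4% divergent (27.7 to 35.3%) and 56.1% on the same strand (52.0 to 60.1%). At ZT12, 11.9% of 312 pairs were convergent (8.73 to 15.9%) and 33.7% divergent (28.6 to 39.1%). Among pairs from 5 to 20 kb apart there were 9.70% convergent (6.55 to 14.1%) and 39.2% divergent (33.2 to 45.6%) of 237 ZT0 pairs. All other neighbouring matches of the list, which are not both sites near genes in the same gap, are called other pairs. They can still hold a site near a gene. At this spacing they were convergent in 17.8% (15.6 to 20.3%) and divergent in 31.2% (28.5 to 34.1%) of 1015 pairs. The intervals of the divergent shares overlapped here, and those of the convergent shares did not. Below 5 kb, 13.4% of 231 pairs within a gap (9.62 to 18.4%) and 12.6% of 459 other pairs were convergent. The divergent shares were 27.3% (21.9 to 33.4%) and 28.1% (24.2 to 32.4%). From 20 to 50 kb, 16.9% of 83 pairs within a gap (10.3 to 26.3%) and 23.9% of 1464 other pairs (21.8 to 26.2%) were convergent. The divergent shares were 25.3% (17.2 to 35.6%) and 30.1% (27.8 to 32.5%). In the ZT0 list the divergent share within gaps was the higher one from 5 to 20 kb only. At ZT12 it was the higher one below 5 kb too. There it was 28.5% of 130 pairs (21.4 to 36.7%) against 25.9% of 247 other pairs (20.8 to 31.7%). The ZT12 shares from 5 to 20 kb were 42.5% of 127 and 34.1% of 513 pairs. From 20 to 50 kb they were 23.3% of 43 and 31.0% of 832. In both lists the intervals of the divergent shares overlapped at each spacing. The spacings were not tested against each other.

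The gap with the most sites in either list was a row of repeated copies on chromosome 6. It extended from 47587219 to 47723327, between a Y RNA gene and the microRNA gene AC166252.1. The ZT0 list had 17 sites here. Of these, 16 met the rule, and the last one lay 966 bp from a start. All 17 ZT12 sites met it, the last one at 1052 bp. Every site of the row overlapped one of the other list. At ZT0 the first site was 389 bp wide and the others 661 to 860 bp, compared with a median of 312 bp for all ZT0 sites near genes. The matches all lay on the minus strand and followed each other at a median distance of 4335 bp, with a step of 54.6 kb in the middle of the row. Of the 17 matches, 16 were identical, with the sequence CGACCGGCAGGTGTCGCCG, while the first one read CGACCACTAGGGGTCGGGC. The first, the second and the last of the row are shown with 40 bases on either side, with the match in capitals and the mm9 coordinates of the whole stretch.
copy 1 (chr6:47601161-47601259, minus strand): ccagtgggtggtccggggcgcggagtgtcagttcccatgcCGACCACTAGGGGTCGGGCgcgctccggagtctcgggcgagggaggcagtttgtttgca
copy 2 (chr6:47605307-47605405, minus strand): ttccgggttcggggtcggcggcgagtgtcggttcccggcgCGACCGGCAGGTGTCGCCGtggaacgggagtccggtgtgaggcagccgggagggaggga
copy 17 (chr6:47722281-47722379, minus strand): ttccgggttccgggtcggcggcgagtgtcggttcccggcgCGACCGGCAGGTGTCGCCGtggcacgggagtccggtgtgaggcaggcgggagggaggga
Over these 99 bases the median identity between pairs of the 17 copies was 98.0%, and the lowest 54.5%. Copies this similar can share reads, and how reads that map to several of them were assigned was not tested. Without this gap, the shared fractions were 58.4% at ZT0 and 83.5% at ZT12, within the intervals given above.

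The next largest groups at ZT0 held 5 sites each. They lay between Ankrd57 and P4ha1 on chromosome 10, where 2 of 5 were shared, between Gm6772 and a 7SK RNA gene on chromosome 12 (4 of 5), between a U6 RNA gene and Gm900 further along the same chromosome (2 of 5), and between Rbfox2 and Apol7a on chromosome 15 (3 of 5). At ZT12, 5 gaps held 4 sites. All 4 were shared in the gap of Gm6772 and in the one between Fbln2 and Wnt7a on chromosome 6, 3 of 4 between 2900026A02Rik and Tmem211 on chromosome 5, and 2 of 4 both between Rpl30-ps6 and Ptma on chromosome 1 and between Gprc5b and Gpr139 on chromosome 7. Downstream of the globin gene Hbq1a on chromosome 11, in the gap before Sh3pxd2b, 3 of 4 ZT0 and 3 of 3 ZT12 sites were shared.

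The sites near genes were then looked up at genes of liver function, of the circadian clock and of loci known for CTCF insulators. Of 153 such genes found in the annotation, 24 had at least 1 ZT0 site near them under the rule, with 29 sites of which 15 were shared, and 15 genes had a ZT12 site, with 17 sites of which 16 were shared. Of all autosomal genes, 8.92% had a ZT0 site near them and 6.54% a ZT12 site, and of the protein-coding ones 10.6 and 7.90%. Of all sites near genes, 58.6% were shared at ZT0 and 83.6% at ZT12. The counts of the single lists below are small and are to be read beside these shares.

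Among hepatic transcription factors, 2 of 22 genes had such a site. Foxa2, a pioneer factor of liver development, had a shared site 1.74 kb upstream of its start, at chr2:147874253-147874640 in the ZT0 list. Rxra, the partner of many nuclear receptors, had a ZT0-only site 31.9 kb downstream. Plasma proteins gave 4 of 42 genes. Fgg, which encodes the gamma chain of fibrinogen, had 2 shared sites 5.57 and 12.3 kb upstream, and Apob, the main protein of very low density lipoprotein, a shared site 47.4 kb downstream. Plg, the plasminogen gene, had a shared site 6.33 kb and a ZT0-only site 11.1 kb upstream. Hpx, the gene of the heme scavenger hemopexin, had a ZT0-only site 3.35 kb upstream.

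In glucose metabolism, 5 of 19 annotated genes had a ZT0 site near them and 4 a ZT12 site. Pck1, the gene of the gluconeogenic enzyme phosphoenolpyruvate carboxykinase, had a ZT0-only site 6.53 kb and a shared site 31.3 kb downstream, in the gap before Zbp1. Fbp1, which encodes fructose bisphosphatase, had a shared site 31.6 kb upstream. The glycogen phosphorylase gene Pygl and the pyruvate kinase gene Pklr each had a shared site, 3.88 and 3.58 kb upstream, and neither of these sites held a motif match. Foxo1 had a ZT0-only site 10.5 kb upstream.

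The lists of lipid, cholesterol and bile acid metabolism gave shared sites at Insig1 and at Slc10a1, the bile acid transporter of hepatocytes, 14.5 kb upstream of its start. Scd1, a fatty acid desaturase gene, had 2 ZT0-only sites, 34.6 kb downstream and 11.4 kb upstream. In the urea cycle, Nags had a shared site 6.94 kb and a ZT0-only site 4.83 kb upstream. The matches of 4 shared sites of these lists are shown as above, and all lay in the same place in the ZT12 list.
Foxa2 (chr2:147874378-147874396, minus strand): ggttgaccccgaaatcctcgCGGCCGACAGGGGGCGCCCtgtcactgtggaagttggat
Slc10a1 (chr12:82083500-82083518, plus strand): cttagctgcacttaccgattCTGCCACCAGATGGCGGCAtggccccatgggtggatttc
Apob (chr12:8066569-8066587, plus strand): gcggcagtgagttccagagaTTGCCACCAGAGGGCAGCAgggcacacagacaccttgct
Fbp1 (chr13:63021151-63021169, plus strand): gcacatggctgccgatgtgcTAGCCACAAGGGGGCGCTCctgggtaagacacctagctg

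Of the 12 core clock genes, 2 had a site near them in each list, and 1 of the 2 sites was shared and held a motif match. The others were listed at 1 time only. Nr1d2, which encodes the repressor REV-ERB beta, had a ZT0-only site 24.4 kb downstream, in the gap between Thrb and Nr1d2, and Per1 a ZT12-only site of 458 bp at chr11:68905820-68906277, 2.67 kb upstream of the nearest transcript start. Neither of these held a motif match. Among clock output genes, Tef had a shared site 10.7 kb downstream. Wee1, a kinase gene of the cell cycle, had a ZT0 site 1009 bp wide and 42.3 kb downstream, which overlapped 2 narrower ZT12 sites, each with a motif match of its own.

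At loci with textbook insulators, 4 of 14 genes had a ZT0 site under the rule and none had a ZT12 site, while 41.4% of all ZT0 sites near genes overlapped no ZT12 site. Myc had a ZT0-only site of 255 bp, 2.04 kb upstream of its start. H19 had one 32.6 kb upstream, at chr7:149796557-149796774, in the gap between H19 and Igf2, and Igf2 one 5.50 kb upstream. Dlk1 had one 14.9 kb upstream. All 4 held a match and were between 218 and 343 bp wide. Sites of other classes at these loci, such as those within 1 kb of a start or in gene bodies, are not counted here. Nor are sites nearest to another gene. Whether any of the 4 is the insulator of its locus was not tested, so these counts do not say whether the insulators were bound at ZT12.

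Genes that the study listed as circadian, chosen by it on its own samples and therefore no independent evidence, are used here by name only. They were the nearest gene of 184 ZT0 sites (5.01%, 4.35 to 5.77%) and 130 ZT12 sites (5.05%, 4.27 to 5.96%). Restricted to sites nearest to a protein-coding gene, the share was 6.62% at ZT0 (5.74 to 7.63%) and 6.58% at ZT12 (5.56 to 7.78%), while 5.52% of the autosomal protein-coding genes are in that list. The shared fraction of these sites was 59.2% at ZT0 (52.0 to 66.1%) and 83.8% at ZT12 (76.6 to 89.2%), next to 58.6 and 83.6% of all sites near genes. In all, 147 of 1230 autosomal circadian genes had a ZT0 site near them (12.0%, 10.3 to 13.9%) and 116 a ZT12 site (9.43%, 7.92 to 11.2%), next to 10.6% (10.2 to 11.0%) and 7.90% (7.55 to 8.27%) of all autosomal protein-coding genes, to which 1182 of the 1230 belong.

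The sites on either side of the limits of the rule are given as they stand. Just inside the lower limit at ZT0 were a ZT0-only site 1007 bp from the start of Mir720 and a shared one 1011 bp from that of Mir124a-3, and just outside it were a shared site 992 bp upstream of 9430023L20Rik and a ZT0-only site 994 bp upstream of Serpinb1a. At the upper limit, the ZT0-only sites named for AC131596.1 and Spp2 lay 49754 and 49966 bp from a start, and the next ones outside, at Gm17699 and a U7 RNA gene, 50024 and 50085 bp. At ZT12 the nearest inside the lower limit were at 1020 and 1021 bp, by Lactbl1 and Gm10146, and a site outside it stood at 990 bp, by Avpr1a. Around the upper limit the ZT12 sites of 9030425E11Rik and Gm9949 stood at 49749 and 49911 bp, and those of Gm17699 and Cpz at 50012 and 50125 bp.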

How the data were processed

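CTCF ChIP-seq of mouse liver at ZT0 and ZT12, with 2 replicates per time point, was used as deposited. The authors aligned the reads with Bowtie2 to NCBIM37/mm9. Alignments of low mapping quality (samtools) and duplicates (Picard) were dropped, and MACS2 gave the peaks. The labels also name FIMO. Each time point has 1 list of starts and ends for both replicates. How the replicates were combined is not given in the sources used here and depth is unknown, so that no test across samples could be made.

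Genes and starts came from the GENCODE annotation of NCBIM37 and sequences from that genome. The motif matrix of 19 bp grew from the most enriched word of 10 bases, CAGGGGGCGC, over 3 rounds. It was learned on odd-numbered chromosomes to score even ones and the reverse. Windows 5 kb away served as background. The scripts were tested on simulated data. Alternative limits, overlaps, widths, motif scores and gene sets were tried.

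Named are the genes of the lists, the members with the highest motif scores (6 shared, 4 listed at ZT0 only and 4 at ZT12 only), the gaps with the most members and the sites next to the limits. Some sites that this rule takes are not reported here. Members and lists were chosen with earlier results of these data known. Gene edges, gap lengths, motif strand relative to genes, core words, neighbour orientation, the shares of all genes with a site near them and the row of copies on chromosome 6 were looked at after seeing the data. The software was Python 3.11.15 with NumPy 2.4.6, pandas 2.3.3, SciPy 1.17.1, numba 0.67.0 and pysam 0.24.0.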

Additional observations from a re-analysis of the deposited data

How the results depend on the processing

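In 53 of 68 alternatives of 8 results the value stayed within its Wilson interval or, for numbers of sites, within 1.5 times. With overlap of at least 50% of both sites, 56.1% of the ZT0 sites near genes and 80.0% of those at ZT12 were shared. For sites at least as wide as the median of their list the shared fractions were 73.4 and 90.3%. With the ZT0 list reduced to its widest sites they were 68.6 and 65.1%, the latter because ZT0 partners were removed. At the strict motif score, which 1% of windows 5 kb away pass, 66.9% of ZT0 and 67.1% of ZT12 sites held a match, and 94.2% of the wider ZT0 sites did at the usual score. The upstream share followed the distance limits and the genes used. With an upper limit of 20 kb it was 62.3% at ZT0 and 62.4% at ZT12, with a lower limit of 5 kb 55.5 and 55.0%, and with protein-coding genes only 62.3 and 61.9%. Including chromosome X and leaving out the gap with the most sites, both chosen after seeing the data, moved no value beyond these bounds.

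No paired analysis was possible because replicates are not told apart in either list. For the same reason, leaving out a replicate was not run. A stricter calling threshold was not run either, as no peak has a score, and the alternatives by width stand in its place. Sites shared by both lists count in both, so the ZT0 and ZT12 values are not independent of each other.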
